A study of Homo sapiens with 40 samples.

Results

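The genes described here encode subunits of the proteasome and enzymes that attach ubiquitin to proteins or remove it. They were chosen by symbol: every probe whose gene symbol begins with PSMA, PSMB, PSMC, PSMD, UBE2 or UBE3, or with UBA or USP followed by a digit, without the immunoproteasome genes PSMB8, PSMB9 and PSMB10, without UBE2C, UBE2L6 and USP18, and without the UBAP genes. This gave 37 genes, measured by 77 probes, of 4604 named genes on the array. The rule reads symbols only, though it was written with earlier results of these data known. By role they were 1 alpha subunit (PSMA7) and 4 beta subunits (PSMB1, PSMB4, PSMB6 and PSMB7) of the 20S core. The 19S regulatory particle gave 3 non-ATPase subunits (PSMD3, PSMD6 and PSMD14). There were also 3 E1 activating enzymes (UBA1, UBA6 and UBA7), 7 genes of the E2 family, 2 E3 ligases (UBE3B and UBE3C) and 15 USP deubiquitinases. No PSMC gene, the ATPases of the 19S particle, was among the named probes. A further 2 genes matched by name alone. USP6NL is not a ubiquitin protease, and PSMA3-AS1 is an antisense RNA whose signal cannot be told apart here from that of an overlapping gene.

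Caspase-10, a protease best known from death receptor signalling, was knocked down in human cell lines with retroviral vectors from which 20 ng/ml doxycycline induced an shRNA. SKMM1, H929 and KMS12 come from multiple myeloma, a cancer of plasma cells. The control lines, OCI-Ly7 and OCI-Ly19, come from B-cell lymphoma. On each 2-colour lymphochip array, RNA of induced cells (Cy5) was set against RNA of uninduced cells of the same line, vector and day (Cy3), after 24 to 120 hours. For the hairpin shCasp10-2 there were 12 arrays of SKMM1 in 3 repeats, 8 of H929 in 2 repeats, 4 of KMS12 and 2 of each lymphoma line. The hairpin shCasp10-3 was measured on 4 arrays of H929 and on 4 of KMS12. On 4 more SKMM1 arrays the Cy3 channel held doxycycline-treated SKMM1 cells carrying a control shRNA, shCtrl, so that both channels had received the drug. Uninduced cells had not, so in the other 36 arrays the drug and the hairpin cannot be told apart. The lines are transduced pools after drug selection, and in RNA from whole cultures fewer cells of a kind and less RNA per cell cannot be told apart. Values are log2 ratios, induced over reference; a ratio holds no level, so the genes are not compared in abundance.

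The ubiquitin-proteasome system marks proteins for destruction in 3 steps. An E1 enzyme activates ubiquitin, an E2 carries it and an E3 ligase passes it to the substrate, while deubiquitinases take it off again; the 19S particle recognises and unfolds the marked protein and the 20S core cuts it. Plasma cells make and discard large amounts of antibody protein, and proteasome inhibitors are standard drugs in myeloma.

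The unit of replication was the time course of 1 line, hairpin and repeat: 8 myeloma courses against uninduced cells, 2 lymphoma courses and 1 course against shCtrl. On 12 of the 40 arrays, called wide below, over 10% of the probes lay beyond a log2 ratio of 3 in size. The median of all probes was below 0 on 10 of them and above 0 on the other two. All 4 arrays of SKMM1 repeat 2 were wide with a median below 0, whereas the wide array of SKMM1 repeat 3 had a median above 0, so those repeats of one condition ran in opposite directions; turning the sign of either is given below. The day 5 arrays of SKMM1 repeats 2 and 3 and of H929 repeat 2, and the day 1 arrays of SKMM1 and H929 repeat 1, were placed in their courses by database number and entered no main average. CASP10 itself, the target, averaged -0.63 ± 0.59 (SD, n = 8 courses), below 0 in 7 of them, and -0.25 ± 0.19 (SD, n = 7) without the wide arrays. Neither lymphoma line showed a fall of that size: OCI-Ly19 was at -0.06 and OCI-Ly7 at 1.77 (1.5 without its wide array), opposite to a knockdown, so the lymphoma values below are those of the libraries labelled with the hairpin. Against the control shRNA CASP10 was at -0.66. The myeloma course not below 0 was SKMM1 repeat 3, at 0.01 (-0.16 without its wide array). The SKMM1 calls below rest in part on that repeat. Its days 2, 3 and 5 stayed under the cut for wide arrays, with 5.52%, 7.62% and 8.58% of probes beyond 3 in size. Nearly all of these were above 3 (5.48%, 7.48% and 8.53%), so arrays that were not wide are not free of tails. Without the wide arrays, CASP10 in H929 with shCasp10-3 was at 0.03, a value of day 4 alone.

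With all arrays averaged by course, no gene of the set passed the test in any of the 12 comparisons; with all single arrays 1 did, USP6 in lymphoma (-0.90). In the response of the 3 myeloma lines to the hairpins (limma on course means over days 2 to 4, Benjamini-Hochberg over 9681 features), 0 of 37 members and 0 of all features (0%) had an adjusted p under 0.05. At an unadjusted p under 0.05, limma returned 3 members, UBE3C, PSMD3 and UBA1, all lower, which is 8.11% of the set beside 4.82% of all features. In SKMM1 it returned 1 member, UBE3C (2.54% of features), against the control shRNA 2, UBA1 and UBE2Z (3.32%), in lymphoma 3, USP1, USP6 and USP22 (12.2%), and for myeloma minus lymphoma 2, USP1 and USP6 (10.7%). It returned 0 members in H929 (1.56%), KMS12 (0.795%), SKMM1 minus KMS12 (0.775%), SKMM1 minus H929 (0.413%), H929 minus KMS12 (0.248%) and between the hairpins (1.78%). The median response of the members was -0.19 and that of all features -0.27. On the array level the members followed the array: their median ran from -2.21 on day 1 of H929 repeat 1, where all features had a median of -2.68, to 0.81 on day 4 of SKMM1 repeat 3, where it was 0.42. On the 28 arrays that were not wide the member median stayed between -0.23 and 0.53. The highest course averages were those of PSMD6 (0.32), USP1 (0.24), PSMD14, UBE2V1 (both 0.12) and USP33 (0.11), and the lowest those of PSMB1 (-1.14), USP25 (-1.10), USP12 (-0.98), USP6NL (-0.97) and USP47 (-0.72). The SD over the 8 courses had a median of 0.59 among members and 0.82 among all features, and of 0.33 and 0.35 without the wide arrays (7 courses); the difference was not tested.

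**Figure D1:**
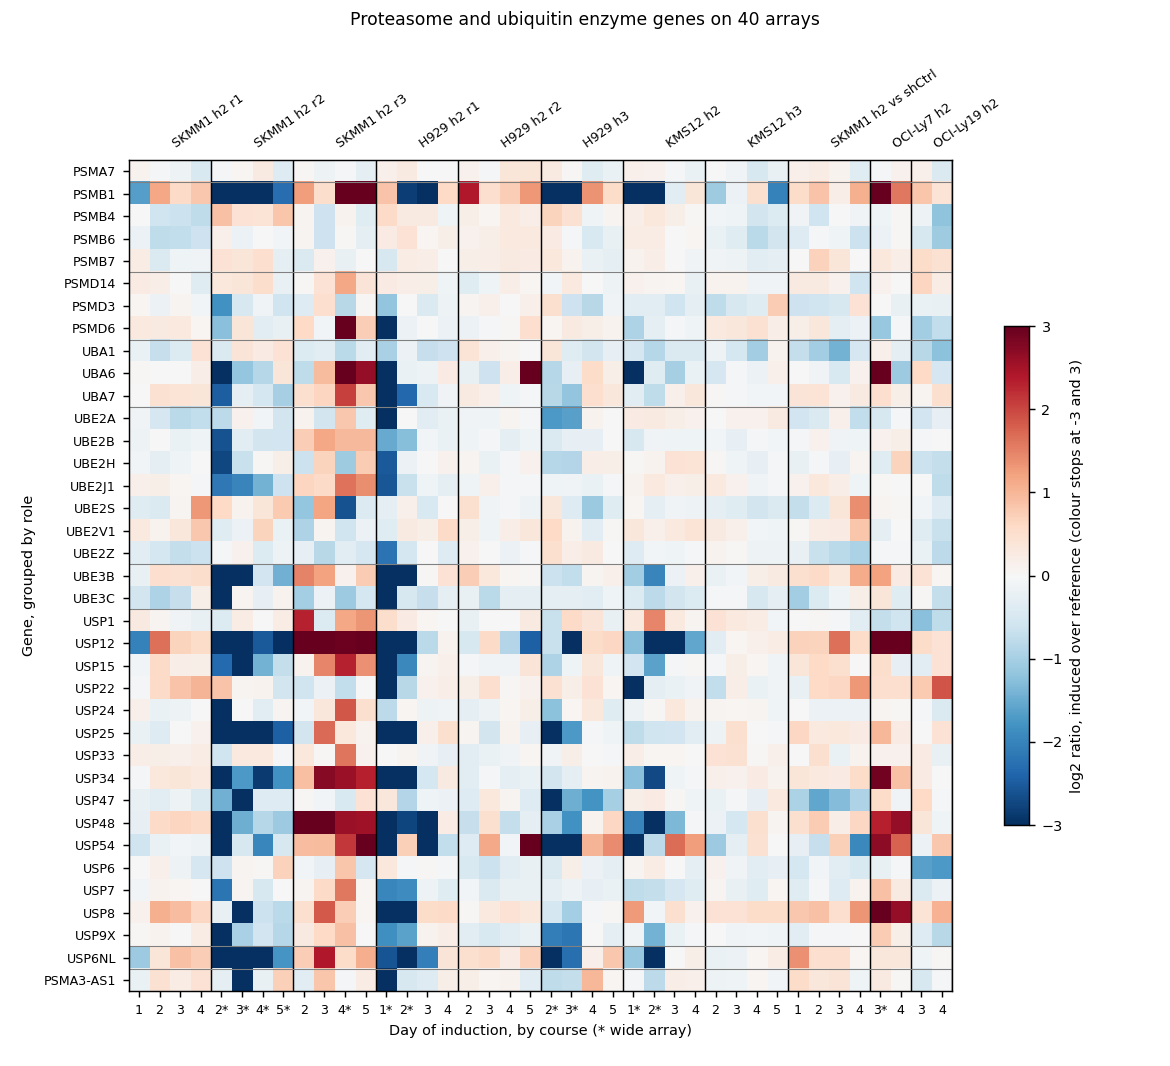
Each row is a gene, grouped by role, and each column an array, grouped by course with its day of induction (asterisk, wide array; h2 and h3, hairpins shCasp10-2 and shCasp10-3; r, repeat); colour is the log2 ratio of induced over reference, stopped at -3 and 3. Deep colours lie mostly in the 12 wide arrays, blue in SKMM1 repeat 2 and early H929 and red in SKMM1 repeat 3, and PSMA7 and PSMB7 stay pale throughout.

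**Figure D2:**
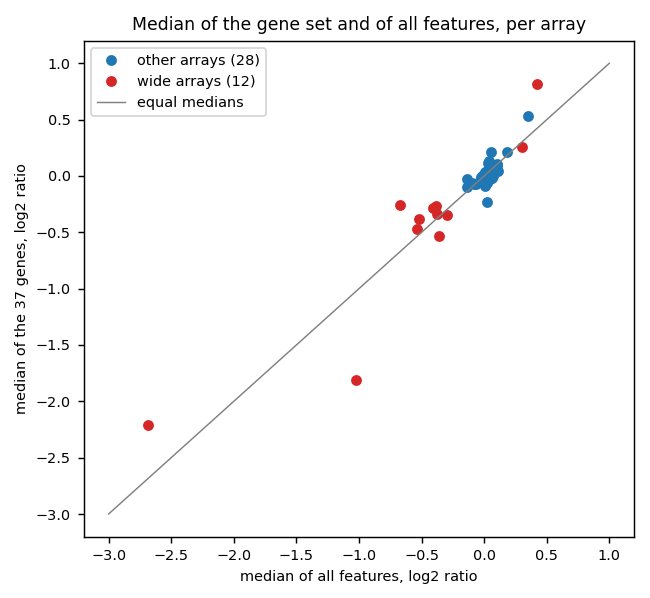
Each point is an array, with the median log2 ratio of all 9681 features on the horizontal axis and that of the 37 genes on the vertical axis; the grey line marks equal medians. Most of the 28 arrays that are not wide lie close to 0 on both axes, and the wide ones spread down to -2.68 and -2.21. Wide and other arrays overlap: day 3 of SKMM1 repeat 3, not wide, lies at 0.35 and 0.53, and the wide day 3 of OCI-Ly7 at 0.30 and 0.26.

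The 4 genes on which the results turn are the E2 enzyme UBE2Z, the deubiquitinase USP8 and the E3 ligases UBE3C and UBE3B. The 250 bases before the start of each gene are shown. These windows do not bear on which transcript a probe detects. RefSeq's promoter table (GRCh38.p14) matched 27 of the 37 genes. Capitals mark CCAAT boxes (CCAAT) and GC boxes (GGGCGG), and would mark the antioxidant response element core (TGACNNNGC), searched on both strands. All windows are on the plus strand, at chr17:48908157-48908406 for UBE2Z, chr15:50424155-50424404 for USP8, chr7:157138676-157138925 for UBE3C and chr12:109477384-109477633 for UBE3B.
UBE2Z: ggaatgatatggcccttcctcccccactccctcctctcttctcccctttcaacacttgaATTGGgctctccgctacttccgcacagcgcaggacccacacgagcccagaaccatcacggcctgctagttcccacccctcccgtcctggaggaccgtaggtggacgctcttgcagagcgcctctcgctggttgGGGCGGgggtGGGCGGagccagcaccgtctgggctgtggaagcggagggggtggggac
USP8: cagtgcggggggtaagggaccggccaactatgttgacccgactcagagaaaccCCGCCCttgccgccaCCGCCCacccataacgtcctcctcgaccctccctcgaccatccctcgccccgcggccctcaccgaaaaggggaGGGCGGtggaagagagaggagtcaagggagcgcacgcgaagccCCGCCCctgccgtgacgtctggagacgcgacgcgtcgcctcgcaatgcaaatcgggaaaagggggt
UBE3C: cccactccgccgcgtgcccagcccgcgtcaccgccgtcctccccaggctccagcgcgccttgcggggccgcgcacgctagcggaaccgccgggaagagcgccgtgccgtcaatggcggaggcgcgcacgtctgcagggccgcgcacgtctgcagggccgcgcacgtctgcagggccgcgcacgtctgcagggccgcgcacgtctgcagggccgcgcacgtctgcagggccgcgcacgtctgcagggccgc
UBE3B: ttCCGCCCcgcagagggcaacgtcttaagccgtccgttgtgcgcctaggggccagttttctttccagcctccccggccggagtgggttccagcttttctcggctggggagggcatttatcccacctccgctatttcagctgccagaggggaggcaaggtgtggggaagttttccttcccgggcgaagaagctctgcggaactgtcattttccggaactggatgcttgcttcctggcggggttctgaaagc
The UBE2Z window holds 1 CCAAT box and 2 GC boxes, that of USP8 4 GC boxes and that of UBE3B 1 GC box; none of the letters searched are in that of UBE3C. Among the 27 genes, 40.7% had a CCAAT box and 77.8% a GC box in a window, beside 37% and 46.2% of all 27305 genes in the table. The TGACNNNGC core was in 14.8% of them beside 13.2% of all. A match describes the letters and is no binding site.

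Of the 8 proteasome subunit genes, 6 (PSMA7, PSMB4, PSMB6, PSMB7, PSMD3 and PSMD14) had an SD over all 40 arrays under 0.5, as had 11 of the 37 members (29.7%) and 20.6% of all features. PSMA7, an alpha subunit of the 20S ring, ranged from -0.47 to 0.37 on the arrays that were not wide, with a mean of 0.10 on the 10 wide arrays of negative median and -0.06 on the 2 of positive median. PSMB7, the subunit with trypsin-like activity, ranged from -0.44 to 0.70. PSMD14, the 19S subunit that removes ubiquitin from the arriving protein, averaged 0.12 ± 0.23 (SD, n = 8 courses), with 5 courses above 0. PSMD3, a 19S scaffold subunit, was below 0 in 7 of 8 courses (mean -0.31 ± 0.27, SD) and its myeloma response was -0.33 ± 0.12 (SE), with an adjusted p of 0.68 by limma.

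PSMB1 and PSMD6 varied more, with SDs over the 40 arrays of 2.94 and 1.61. PSMB1, a beta subunit without catalytic activity, averaged -4.21 on the wide arrays of negative median and 4.86 on those of positive median, and still ran from -5.27 to 3.32 on the other 28. PSMD6, a 19S lid subunit, reached a mean of 2.57 in SKMM1 repeat 3 while the other 7 course means lay between -0.41 and 0.36. That mean rests on 1 wide array, day 4 at 7.18; days 2 and 3 were 0.60 and -0.08, and without day 4 the mean was 0.26. The lowest array was day 1 of H929 repeat 1 at -6.48, also wide. Both genes are measured by 1 probe. PSMB1 is 1 of 9 members (24.3%, beside 27.6% of all features) with a mean under -1 on the wide arrays of negative median and over 1 on those of positive median; the others were UBA6, UBA7, USP8, USP12, USP15, USP34, USP48 and USP54.

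**Figure D3:**
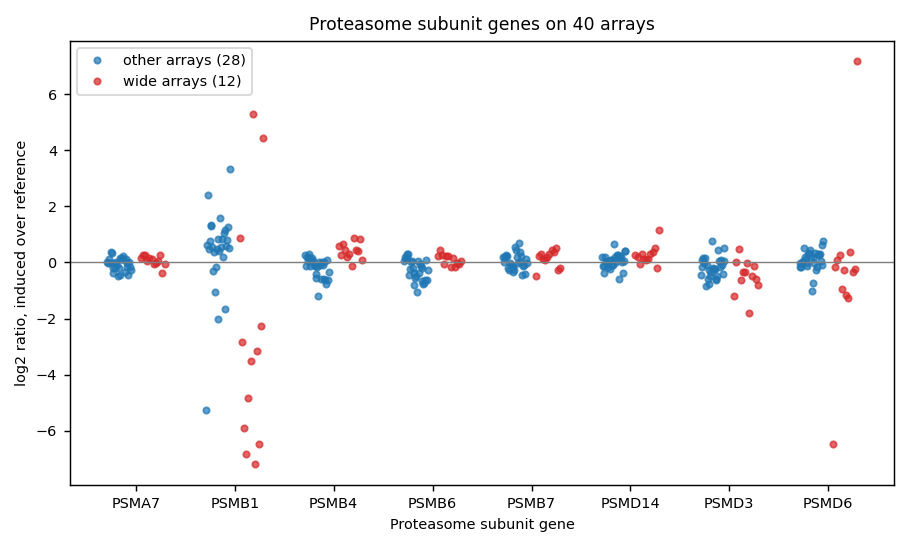
Each point is the log2 ratio of a proteasome subunit gene on 1 of 40 arrays, blue for the 28 arrays that are not wide and red for the 12 wide ones. PSMA7, PSMB4, PSMB6, PSMB7, PSMD14 and PSMD3 vary least, with an SD under 0.5, whereas PSMB1 spreads from -5.27 to 3.32 even on the blue arrays. Single points of the former still reach -1.81 (PSMD3, red) and -1.21 (PSMB4, blue).

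Without the wide arrays the calls depend on how the arrays were modelled. On course means 0 members passed in the myeloma response, in SKMM1 or against the control shRNA (0% of features in each), and 1, USP8, in the lymphoma response (4.92% of all features). On single arrays with the course as a random block (correlation 0.19), limma called 3 members in the myeloma response, UBE3C lower and USP8 and UBE3B higher, or 8.11% of the set beside 4.95% of all features. Those fits treat OCI-Ly7 and OCI-Ly19 as separate groups. With both lymphoma lines as 1 group, which leaves the difference between them in the estimated spread, the same single arrays gave 0 members in the myeloma response (1.71% of features), with adjusted p of 0.0625 for UBE3C, 0.0621 for USP8 and 0.0625 for UBE3B. The grouping was settled after both outcomes had been seen, and the calls of single arrays are given with it in mind.

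The members called under both groupings were all called in SKMM1 cells, on single arrays only. In the SKMM1 response they rest on repeats 1 and 3, and with the sign of repeat 3 turned 0 members and 0 features passed there on the same single arrays (2 members and 4.33% of features at an unadjusted p under 0.05). UBE2Z was then -0.09, USP8 -0.06 and UBE3B -0.35, so these calls hold only for the deposited direction of that repeat. UBE2Z, an E2 enzyme that is charged by UBA6, was below 0 on all 7 SKMM1 arrays that were not wide. Its log2 ratios in repeat 1 were -0.34, -0.52, -0.71 and -0.65 (days 1 to 4), and repeat 3 gave -0.26, -0.84 and -0.50 (days 2, 3 and 5). On the wide arrays of repeat 2 they were -0.03, 0.14, -0.41 and -0.14 on days 2 to 5. The response over days 2 to 4 was -0.59 ± 0.13 (SE) on the 5 single arrays, with an adjusted p of 0.00995 by limma and 0.0323 with the lymphoma lines pooled; it stayed under 0.05 in 10 of 10 fits that left out a course. On course means it did not pass, at -0.59 ± 0.16 without the wide arrays (adjusted p = 0.17) and -0.40 ± 0.19 with all arrays (adjusted p = 0.94).

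UBE2Z was also lower against the control shRNA, where both channels had received doxycycline. Its log2 ratios were -0.21, -0.66, -0.80 and -0.94 on days 1 to 4, all below 0, and the mean over days 2 to 4 was -0.80 ± 0.17 (SE; adjusted p = 0.00895 by limma on single arrays, 0.0291 with the lymphoma lines pooled). On course means it did not pass, the adjusted p being 0.28 once wide arrays were left out and 1.0 before, and with SKMM1 repeat 3 turned 0 members passed here on single arrays. This is 1 course, whose spread is assumed to be that of the other courses. Its database numbers follow directly on those of SKMM1 repeat 1, which has the same line, hairpin and days. Whether the same induced RNA was used for both is not given. Agreement between these courses, for UBE2Z or any other gene, may therefore not be independent. In H929 and KMS12 the single arrays gave -0.02 ± 0.11 and -0.04 ± 0.13 (SE), neither passing the test. The difference between SKMM1 and KMS12 was -0.55 ± 0.18 (adjusted p = 0.0673 by limma, and 0.0417 with arrays centred on their median). That from H929 was -0.57 ± 0.17 (adjusted p = 0.115). With every course kept, a difference between lines thus passed only against KMS12 and only after centring. Fits that left out a course gave 0 to 6 member calls in either comparison.

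USP8, a deubiquitinase of endosomal sorting that spares receptors from degradation, was above 0 on all 7 of these SKMM1 arrays, at 0.14, 1.07, 0.93 and 0.63 in repeat 1 (days 1 to 4) and 0.49, 1.83 and 0.06 in repeat 3 (days 2, 3 and 5). On the wide arrays of repeat 2 it was below 0 throughout, at -0.23, -3.92, -0.63 and -0.81. The SKMM1 response on single arrays was 1.00 ± 0.20 (SE), with an adjusted p of 0.00822 by limma, 0.0468 with the lymphoma lines pooled, and 0.17 and 0.99 on course means without and with the wide arrays. Against the control shRNA it was 0.81, 0.87, 0.51 and 1.33 on days 1 to 4, with a mean of 0.90 ± 0.26 over days 2 to 4 (adjusted p = 0.0435, but 0.208 with the lymphoma lines pooled and up to 0.0723 without either KMS12 course). USP8 is one of the genes that swing with the tails, averaging -1.29 and 2.12 on the wide arrays of negative and positive median, beside 0.63 on the others; the part of the tails in its values on other arrays was not tested. Its 2 probes shared a sign, with SKMM1 means of 0.48 and 1.5 without the wide arrays.

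Over the 3 myeloma lines USP8 was above 0 on 20 of 21 arrays that were not wide, from -0.06 to 1.83 with a median of 0.43. The exception was day 4 of H929 with shCasp10-3. Its response was 0.56 ± 0.11 (SE) and held in 9 of 10 fits that left out a course, the exception being KMS12 with shCasp10-3 (adjusted p = 0.116). With all arrays the response was 0.03 ± 0.33.

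UBE3C, an E3 ligase that works at the proteasome and lengthens ubiquitin chains, was the only member with 1 sign in all 8 myeloma courses, a pattern below 0 that 3.01% of all features shared; without the wide arrays it was below 0 in 7 of 7 courses, as were 4.19% of features. Its course means were -0.48, -1.10 and -0.77 in SKMM1 repeats 1 to 3, -0.48, -0.44 and -0.30 in H929 repeats 1 and 2 and with shCasp10-3, and -0.58 and -0.20 in KMS12 with shCasp10-2 and shCasp10-3. Of 32 myeloma arrays 29 were below 0, with extremes of -8.32 on day 1 of H929 repeat 1 and -3.13 on day 2 of SKMM1 repeat 2, both wide. The other 3 arrays, at 0.09, 0.10 and 0.19, were all of SKMM1. The myeloma response was -0.53 ± 0.11 (SE; adjusted p = 0.68) with all arrays and -0.43 ± 0.11 (adjusted p = 0.0333) on single arrays without the wide ones, and it kept an adjusted p under 0.05 in 6 of 10 fits that left out a course; the 4 that lost it were without H929 repeat 1, H929 with shCasp10-3 or either KMS12 course, with adjusted p up to 0.14. Against the control shRNA it was -1.04, -0.40, -0.12 and 0.17 on days 1 to 4, and the mean of -0.12 ± 0.27 over days 2 to 4 did not pass (adjusted p = 0.82). UBE3C has 1 probe.

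UBE3B, a related E3 ligase, was higher in SKMM1 without the wide arrays and lower with them. Repeat 1 gave -0.23, 0.51, 0.47 and 0.53 (days 1 to 4) and repeat 3 gave 1.49, 1.21 and 0.77 (days 2, 3 and 5), while the wide arrays of repeat 2 gave -2.98, -4.90, -0.57 and -1.45. The SKMM1 response was 0.87 ± 0.18 (SE) on single arrays (adjusted p = 0.00822, 0.0199 with the lymphoma lines pooled, and 0.17 for course means that leave the wide arrays out), but -0.46 ± 0.73 with all arrays. Without SKMM1 repeat 3 the single-array response was 0.50 and no longer passed (adjusted p = 0.135). Its 3 probes differed, with SKMM1 means of 0.13, 1.73 and 0.66 without the wide arrays. Against the control shRNA the values of 0.48, 0.58, 0.31 and 1.11 were all above 0 (mean over days 2 to 4 of 0.67 ± 0.23, adjusted p = 0.0895). SKMM1 exceeded KMS12 by 0.90 ± 0.25 (adjusted p = 0.0399), but this passed in 4 of 10 fits that left out a course and fell to 0.53 without SKMM1 repeat 3. Beside it, 7.53% of all features passed between these lines, and 0.062% with the lymphoma lines pooled, where 0 members did. Its myeloma response, 0.37 ± 0.10, also passed in 4 of 10 such fits, with a range of 0.24 to 0.53.

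**Figure D4:**
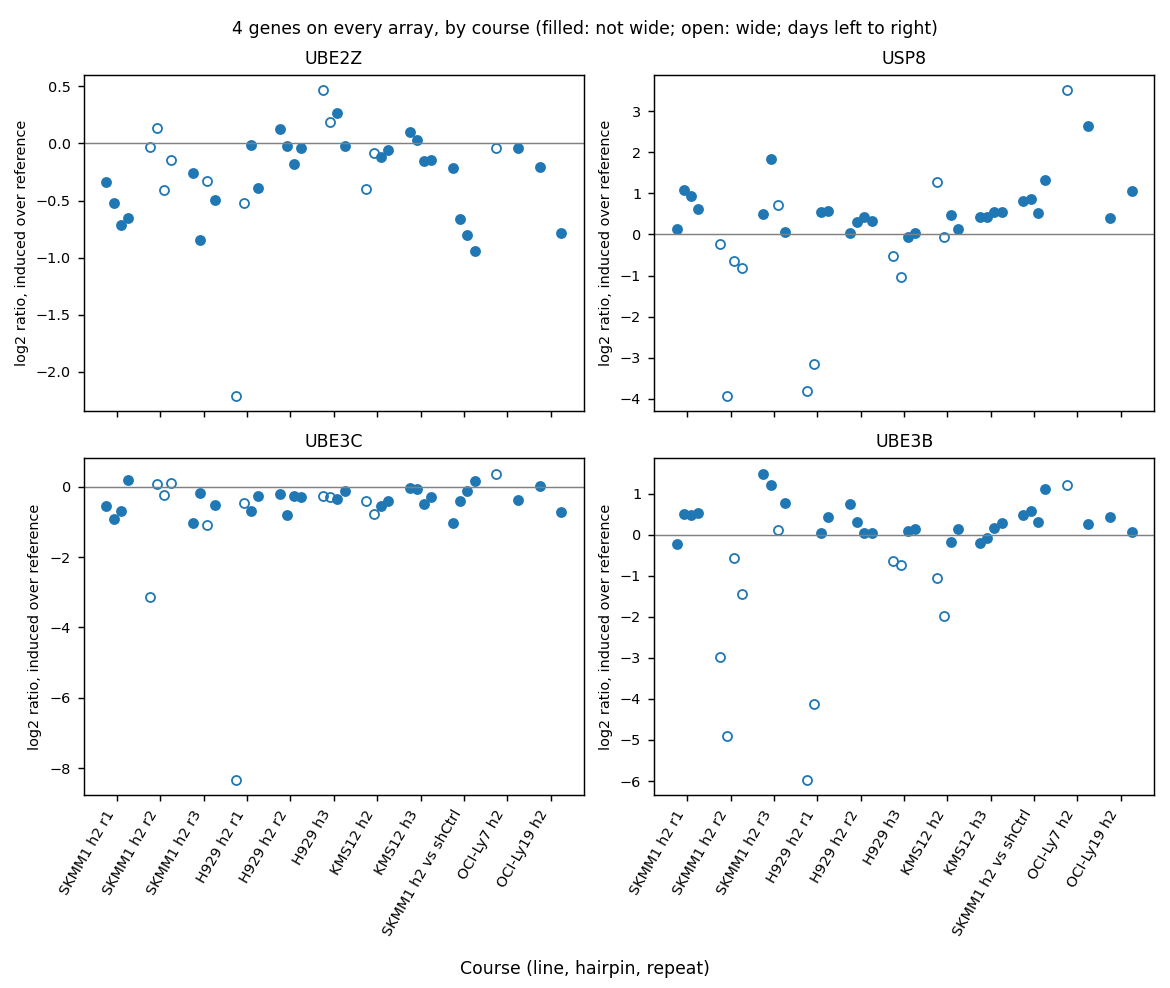
Each point is the log2 ratio of 1 gene on 1 array, by course with its days from left to right (filled, not wide; open, wide; h2 and h3, the hairpins; r, repeat). UBE2Z is below 0 on all filled SKMM1 points, and its filled points in H929 and KMS12 lie between -0.39 and 0.27; USP8 is above 0 on nearly all filled points and UBE3C below, and for USP8 and UBE3B the open points of SKMM1 repeat 2 lie below 0.

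At an unadjusted p under 0.05, 16 members (43.2%, beside 34.1% of features) passed in SKMM1 on single arrays without the wide ones. After adjustment 10 members (27% of the set, beside 18% of all features) were called, and 3 (UBE2Z, UBE3B and USP8, beside 4.98% of features) with the lymphoma lines pooled. Of the 10, the 3 lower were PSMB6 (-0.52 ± 0.18, SE), UBE2A (-0.48 ± 0.15) and UBE2Z, and the 7 higher were UBE3B, USP8, UBA7, USP12, USP34, USP48 and USP6NL. PSMB6, the subunit with caspase-like activity, was at -0.76, -0.73 and -0.63 on days 2 to 4 of repeat 1 and at 0.09 and -0.62 on days 2 and 3 of repeat 3, and passed in 2 of 10 fits that left out a course. UBE2A, an E2 of the DNA damage response, was lost without SKMM1 repeat 1 (-0.22) or either KMS12 course. UBA7, the E1 that activates the ubiquitin-like ISG15, was 0.48 ± 0.13, with its 3 probes at 0.57, 0.19 and 0.66, and did not pass without SKMM1 repeat 1 or repeat 3. With arrays centred on their median, limma called PSMB4 (-0.64) and UBE3C (-0.67) as well, both lower, and UBA7 (0.34) no longer passed.

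The largest of these responses were mostly set by repeat 3, though repeat 1 was above 0 on days 2 to 4 as well. USP48 was at 0.56, 0.64 and 0.58 on days 2 to 4 of repeat 1 and at 3.06 and 4.13 on days 2 and 3 of repeat 3. Its response of 1.90 ± 0.56 (SE) fell to 0.59 without repeat 3, where the adjusted p was 0.58. USP34, which acts in Wnt signalling, went likewise from 0.97 to 0.32, USP12 from 2.29 to 0.95 and USP6NL from 1.05 to 0.65, none passing without repeat 3. USP12, USP34 and USP48 are among the genes that swing with the tails. Days 2 and 3 of repeat 3 held 5.48% and 7.48% of probes above 3, beside 0.18% and 0.05% on those days of repeat 1. The part of the tails was not tested. USP12 differed between SKMM1 and KMS12 by 3.86 (adjusted p = 0.0382), which fell to 2.33 without KMS12 with shCasp10-2 and 2.49 without SKMM1 repeat 3; it did not pass in 4 of 10 such fits.

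Against the control shRNA, 4 members were called on single arrays (10.8% of the set, beside 7.82% of features; 6 members and 22.7% of features at an unadjusted p under 0.05), and 2, UBE2Z and USP47, with the lymphoma lines pooled (3.46% of features). USP47, a deubiquitinase of base excision repair, was at -0.94, -1.56, -1.29 and -0.92 on days 1 to 4, all below 0 (mean over days 2 to 4 of -1.26 ± 0.31, SE; adjusted p = 0.0177, and 0.0378 pooled, but 0.42 on course means). Against uninduced SKMM1 cells repeat 1 gave -0.23, -0.32, -0.15 and -0.44 (days 1 to 4) and repeat 3 gave 0.04, -0.09 and 0.44 (days 2, 3 and 5), none as low as the control-shRNA values. The wide arrays of repeat 2 overlapped them, at -1.43, -4.28, -0.38 and -0.39. UBA1, the main E1 enzyme, was at -0.73, -1.04, -1.43 and -0.51 (mean over days 2 to 4 of -0.99 ± 0.29; adjusted p = 0.0393, but 0.0933 pooled and up to 0.0653 without either KMS12 course). In the myeloma courses UBA1 was below 0 on 22 of 32 arrays, and its response of -0.32 ± 0.13 did not pass.

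H929 and KMS12 gave no member call in any of these fits (0 and 0.0207% of all features on single arrays). At an unadjusted p under 0.05 limma returned 3 members in H929 (UBE3C, USP6 and USP7, all lower, beside 6.15% of features) and 4 in KMS12 (PSMD3, UBA1, USP7 and USP12, all lower, beside 10.8%). The smallest unadjusted p in H929 was that of UBE3C at 0.025 (-0.43 ± 0.18, SE), and in KMS12 that of PSMD3 at 0.0184 (-0.49 ± 0.19). The hairpins shCasp10-3 and shCasp10-2 were compared within these lines, and no member or other feature passed (0%), with 3 members, USP47, PSMB6 and USP12, at an unadjusted p under 0.05 (6.09% of features). Between SKMM1 and H929 0 members passed (0.0103% of features) and 14 had an unadjusted p under 0.05 (19.8%); between H929 and KMS12 both counts were 0 (2.94% of features unadjusted), the smallest p being that of USP33 (-0.34 ± 0.17, SE). Between the hairpins the smallest p was that of USP47, at -0.85 ± 0.28 (adjusted p = 0.77), while USP12 had the larger difference (2.31 ± 0.96). In H929 with shCasp10-3 days 2 and 3 were wide, so that course entered the hairpin comparison over days 2 to 4 as day 4 alone. USP47 there was at -5.03, -1.46, -1.79 and -1.0 on days 2 to 5, and on the other H929 arrays between -0.88 and 0.34. The SE of such differences leaves shifts of this size undetected. With all arrays no member passed the limma test for a change with the day of induction (0% of features). There 4 had an unadjusted p under 0.05 (USP6NL, USP9X, USP34 and USP15, all rising, 10.8% beside 11% of features). On single arrays without the wide ones 0 passed and 2, USP6 and UBA6, had such a p (8.19% of features).

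In the lymphoma lines, 4 members were called on single arrays of days 3 and 4 without the wide one (10.8% beside 13.8% of features), and 0 with the lines pooled (0.0516%), where the adjusted p were 0.0551 for USP8, 0.0537 for USP1 and 0.0702 for USP6. The wide array left out was day 3 of OCI-Ly7. That line entered these fits as day 4 alone, with 7.96% of its probes beyond 3 in size. USP1, a deubiquitinase of the Fanconi anaemia pathway, was below 0 on all 4 lymphoma arrays on days 3 and 4. It was at -0.72 and -0.60 in OCI-Ly7 and -1.25 and -0.77 in OCI-Ly19. Its mean response was -0.80 ± 0.15 (SE; adjusted p = 0.00339), and without OCI-Ly19 it was -0.60 (adjusted p = 0.131). The myeloma lines exceeded it by 0.82 (adjusted p = 0.0095), a comparison in which 3 members passed beside 7.33% of features, and 0 with the lymphoma lines pooled (0.0103%). USP6 was near 0 in OCI-Ly7 (-0.22 and -0.03) and at -1.63 and -1.73 in OCI-Ly19, so its response of -0.85 ± 0.16 rests on that line (-0.03 without it). USP8 was at 3.52 and 2.64 in OCI-Ly7 and 0.40 and 1.05 in OCI-Ly19, a mean of 1.68 ± 0.26 (0.73 without OCI-Ly7, adjusted p = 0.193) that OCI-Ly7, where CASP10 itself was higher, largely sets, and the myeloma lines lay 1.04 below it (adjusted p = 0.048). USP22, a deubiquitinase of the SAGA complex, was 0.92 ± 0.28 (adjusted p = 0.0471, but 0.0721 after centring), and passed in 4 of 10 fits that left out a course. The day 3 values of OCI-Ly7 given above (-0.72 for USP1, -0.22 for USP6 and 3.52 for USP8) were not part of these responses. Each lymphoma line is 1 course, so any spread between courses comes from the other courses.

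The E2 and USP genes with most probes showed how far probes of 1 gene can part. UBE2B and UBE2H have 6 probes each, and in SKMM1 without the wide arrays the UBE2B probes ran from -0.45 to 2.15. USP9X has 5, from -0.20 to 1.05. Of the 17 members with more than 1 probe, the probes of 10 shared a sign over the myeloma courses without the wide arrays and those of 7 did not. UBE2S, an E2 of the anaphase-promoting complex, was even across its 3 probes (-0.16, -0.18 and -0.27).

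A wider list of 50 genes of the pathway, not in the set, was read beside it: E3 ligases, cullins, proteasome activators, COP9 signalosome subunits and other deubiquitinases. With all arrays 0 passed in the myeloma response, with a median of -0.16; on single arrays without the wide ones 3 passed (6% of the list, beside 4.95% of all features), NPLOC4 (0.46 ± 0.11, SE), a cofactor of the p97 segregase, higher, and SIAH2 (-0.52 ± 0.10), an E3 ligase of the hypoxia response, and UCHL3 (-0.49 ± 0.12), a deubiquitinase, lower. In SKMM1 6 passed (12%, beside 18% of features), 2 higher (NPLOC4 and TNFAIP3, the ubiquitin-editing brake on NF-kB) and 4 lower (PSME3, SIAH2, SYVN1 and CDC16). With the lymphoma lines pooled SIAH2 alone passed in myeloma, and NPLOC4, SIAH2 and TNFAIP3 in SKMM1. Against the control shRNA 7 passed (14%, beside 7.82% of features; only CDC16 with the lymphoma lines pooled, 2% beside 3.46%), SEM1 higher and 6 lower, among them UCHL3 (-1.19 ± 0.29) and the proteasome activator PSME1 (-0.79 ± 0.21). Of the genes left out by the rule, the immunoproteasome subunit PSMB9 and UBE2L6, the E2 for ISG15, were called lower on single arrays. This was so in SKMM1, where 18% of all features were called, and against the control shRNA, where 7.82% were. With the lymphoma lines pooled PSMB9 no longer passed in SKMM1 (4.98% of features).

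Marker lists of other cells were read on the same arrays. Without the wide arrays, single arrays called 0 of 11 plasma cell markers in the myeloma response and in SKMM1, and 0 of 11 mature B cell markers in the myeloma response, but 2 (PAX5 and CIITA, higher; 18.2% of the list, beside 18% of features) in SKMM1, where the UBE2Z, USP8 and UBE3B calls lie; the part of these in the results was not tested. Of 14 T and NK cell markers 1, NKG7, was called in the myeloma response, where 4.95% of all features were called. In the lymphoma lines 5 were called higher (35.7%, beside 13.8% of features). With the lymphoma lines pooled 0 markers of these 3 lists passed in the myeloma, SKMM1 or lymphoma responses. Ratios do not give levels, so the labelled cell types could not be checked from them.

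Turning the sign of SKMM1 repeat 2 or of repeat 3 gave 0 member calls in every comparison with all arrays. With repeat 2 turned the member median of the myeloma response was 0.07 and that of all features -0.01, and with repeat 3 turned they were -0.29 and -0.38. UBE2Z in SKMM1 was then -0.33 ± 0.21 and -0.08 ± 0.25 (SE), and USP8 1.16 ± 0.25 and -0.58 ± 0.47, so the sign of USP8 in SKMM1 with all arrays follows the direction given to these repeats.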

How the data were processed

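Per the labels, 50 micrograms of total RNA was labelled with each dye. The authors deposited 1 value per probe and array for 15246 probes, read here as log2 ratios of Cy5 over Cy3; their base, background correction, normalisation and direction are not given in the sources used, and intensities were not used. Dyes were never swapped, and each response includes any dye effect. Probes were named through the platform annotation, 10169 of them with 1 symbol, and 5073 unlisted probes were kept singly; probes of a gene were averaged. The members, lists and the cut for wide arrays were chosen with earlier results of these data known.

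Courses were averaged over days 2 to 4 (days 3 and 4 for lymphoma). Linear models came from limma 3.58.1 under R 4.3.3, the 3 myeloma lines weighted equally, with Benjamini-Hochberg adjustment at 0.05. On course means the p-values measure the spread between courses, which may be technical. On single arrays they also rest on the spread between days within a course, and days of a course are not independent repeats. Each line and reference was a group. Fits with the lymphoma lines as 1 group were run first, and the lines were separated after their results had been seen; both are reported. The alternative on single arrays used duplicateCorrelation with the course as block. The code was tested on simulated data. Members were named if called in any fit, if of 1 sign in all courses, if among the 5 highest or lowest means or the 3 smallest p of a comparison, or if with most probes in their role.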

Additional observations from a re-analysis of the deposited data

Results flagged for a closer look

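Among the 8 myeloma courses, 7 of the 37 members had a course far from the other 7 by Dixon's test, where chance flags about 1 in 20. The share of all features so flagged was not counted, so the count is not a result about these genes. SKMM1 repeat 2, whose arrays are all wide, was the low one for USP25 (-5.34), UBA6 (-3.42), PSMA3-AS1 (-2.22), USP24 (-2.06) and UBE2J1 (-1.85). SKMM1 repeat 3 was the high one for PSMD6 (2.57) and the low one for UBE2V1 (-0.48). No other course stood apart for any member.

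Differences between groups of lines that passed the test on single arrays without the wide ones were those of USP12 (3.86) and UBE3B (0.90) between SKMM1 and KMS12, and of USP1 (0.82), USP6 (0.62) and USP8 (-1.04) between myeloma and lymphoma. With the lymphoma lines pooled as 1 group 0 members passed in either comparison. USP6 turned to -0.20 without OCI-Ly19 and USP8 to -0.08 without OCI-Ly7.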

How the results depend on the processing

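On course means of all arrays 0 members were called in each of the 12 comparisons, also with arrays centred, either SKMM1 sign turned, all days, median probes, the lymphoma lines pooled, or a course left out, except that leaving a course out gave 0 to 1 calls in the lymphoma response. On all single arrays with the course as replicate block 1 was called, in lymphoma. Without wide arrays, course means called 1 in lymphoma, and 2 after centring. Single arrays without wide arrays (replicate block) called 3 in the myeloma response, 10 in SKMM1, 2 for SKMM1 minus KMS12, 4 against the control shRNA, 4 in lymphoma and 3 for myeloma minus lymphoma; after centring 3, 11, 3, 4, 5 and 2; with the lymphoma lines pooled 0, 3, 0, 2, 0 and 0; with SKMM1 repeat 3 turned 0, 0, 0, 0, 3 and 1. Leaving out a course there gave 0 to 5, 3 to 10, 0 to 6, 2 to 6, 1 to 7 and 1 to 5, and 0 to 6 for SKMM1 minus H929 and 0 to 7 for the change with day. The leave-one-out of single arrays, the centred course means without wide arrays, the turned sign on single arrays, the pooled grouping as an alternative and the separation of the lymphoma lines were chosen after seeing the data.

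The member median of the myeloma response ran from -0.30 to -0.06 without a course with all arrays, and from -0.06 to 0.07 on single arrays without wide ones. The share of all features whose sign turned without wide arrays was not counted, so the counts that follow are not a result about these genes. Without wide arrays (single arrays) 18 of 37 members had another sign than with all arrays in the myeloma response, 16 of them turning above 0, and 16 in SKMM1. Those that turned and were called, there and after centring, were UBE3B in myeloma (0.37 and 0.35) and SKMM1 (0.87 and 0.73; 0.88 pooled), USP34 (0.97 and 0.83) and USP6NL (1.05 and 0.91) in SKMM1; UBE3B also turned for SKMM1 minus KMS12 (0.90). Over all fits without a course they ran from -0.65 to 0.53, -1.16 to 1.35, -1.29 to 1.81, -2.11 to 1.56 and -0.80 to 1.38, the low ends without SKMM1 repeat 3 with all arrays. The cause was not tested. No signal over background was used, so weak and strong probes count alike.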
